A study of Drosophila melanogaster with 6 samples.

Results

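The Dpr, DIP, Beat and Side proteins are 4 families of neuronal surface proteins of the immunoglobulin superfamily, and their genes were followed here in larval brains of Drosophila melanogaster, taken at the 3rd instar, with RNAi against DMAP1. The members were chosen by gene symbol alone: dpr with a number, DIP- with a Greek letter name, beat- with a Roman numeral, and side alone or with a Roman numeral. This gave 54 of the 17490 gene rows of the count table, namely 21 Dpr, 11 DIP, 14 Beat and 8 Side genes. Dip-B, Dip-C, DIP1 and DIP2 do not match these patterns and are not members.

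Dpr proteins (defective proboscis extension response) and DIPs (Dpr-interacting proteins) bind each other in a selective network across the gap between neurons, so that the pairs a cell makes help it to find its synaptic partners. Beat proteins are named after beat-Ia (beaten path), which lets motor axons leave their bundle, and many of them bind proteins of the Side (sidestep) family on the cells the axons meet. In the larval nervous system these genes are known for motor axon guidance and neuromuscular wiring, and in the growing optic lobe for layer and partner choice. Most of them are used by subsets of neurons, so a level in whole brain is an average over cells that do and do not express the gene.

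Polyadenylated RNA was sequenced from larval brains in which elav-Gal4, a driver used to express transgenes in neurons, was combined with an RNAi transgene for DMAP1, which belongs to the Tip60/Domino complex of chromatin remodellers. All 6 labelled samples share this genotype. The columns of the count table fall into 2 series of 3 libraries, named DMAP1RNAi63666 and DMAP1RNAi103734. The labels do not say what these stems stand for, so the series are compared only as the column names give them. Values of wild-type brains were not analysed here, and the results therefore describe levels and differences among DMAP1 RNAi brains, not an effect of the RNAi. Glia, progenitors and other cells of the dissected tissue contribute RNA to the same libraries as the neurons.

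DMAP1 itself (FBgn0034537) had 7.08, 8.42 and 8.00 CPM, the count scaled to the total of its library, in the DMAP1RNAi63666 libraries and 12.4, 13.8 and 11.7 CPM in the DMAP1RNAi103734 libraries. It was lower in DMAP1RNAi63666, with a difference of -0.62 on the log2 scale (SE 0.12, adjusted p = 0.0453, edgeR's quasi-likelihood test with Benjamini-Hochberg adjustment). This call was lost in 9 of the 13 alternatives that were run, among them the omission of any library other than library 2 of DMAP1RNAi63666, with adjusted p from 0.0507 to 0.168 in those 9. Without a control it is a level and not a size of knockdown.

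Total counts per library ranged from 31518485 to 37236953, and 12855 to 13181 genes had a count. The neuronal markers elav and nSyb averaged 151.5 ± 19.99 TPM and 570.5 ± 96.7 TPM (SD, n = 6), where TPM is a level scaled to gene length and library. A pair of libraries stood apart. Library 1 of DMAP1RNAi63666 had the highest summed level of 10 pan-neuronal markers (3055 TPM), and library 2 of DMAP1RNAi103734 had the lowest (1776 TPM) together with the highest summed level of 6 fat body markers, 497 TPM against 29.5 to 139 TPM in the other 5 libraries. Genes of the mitochondrial genome took 10.9, 8.85 and 8.18% of counts in DMAP1RNAi63666 and 6.98, 6.88 and 7.10% in DMAP1RNAi103734, so this share did not overlap between the series, and its part in the members' differences was not tested. The differences of the 5 members of smallest p, and the family medians, are given with and without library 1 of DMAP1RNAi63666. The family medians are also given without library 2 of DMAP1RNAi103734. The differences of dpr5, of the partner ratios and of other recognition genes are given with all libraries only.

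All members whose level can be read were expressed: 53 of 54 had a mean of at least 1 TPM, at least 1 CPM in every library, and passed the filter on low counts. The level of the other, beat-IIIa, cannot be read from these counts. Of all gene rows, 55.9% had a mean of at least 1 TPM. At a threshold of 10 TPM 52 members remained, and DIP-iota was the one that did not reach it. The members together summed to 3279, 2727 and 2599.7 TPM in DMAP1RNAi63666 and to 2834, 2199 and 2753 TPM in DMAP1RNAi103734. They took 0.489, 0.435 and 0.401% of all counts in DMAP1RNAi63666 libraries 1 to 3, and 0.443, 0.357 and 0.440% in DMAP1RNAi103734 libraries 1 to 3.

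The count of beat-IIIa (FBgn0265607, BDGP6, chromosome 2L, 17131024 to 17173118, plus strand) was 0 in all 6 libraries. Its exons, 4457 bases in all, are shared by 100% on the same strand with the gene row CG34106, which also had 0 counts. The counting assigned no read that lay over more than 1 gene, so the level of beat-IIIa cannot be read from this table. The bound of 3 counts over 206232878, or 0.0145 CPM, therefore limits only reads that the counting could assign to it, and covers counting error only. Among the other members, 12.6% of the exon bases of DIP-theta and 1.76% of those of DIP-alpha are shared with a gene on the same strand. Antisense genes cover 75.2% of the exon bases of side-IV and 15.7% of those of dpr4, and the counting used strand.

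The families differ in gene structure, which played no part in choosing the members. Side genes have 14 to 21 exons after merging of their transcripts, Beat genes 6 to 9, DIP genes 6 to 13 and Dpr genes 6 to 10, so that the exon numbers of the Side family do not overlap with those of any other. The median exonic length was 5634 bases for Side, 3222.5 for Beat, 3150 for DIP and 3283 for Dpr. Across the 53 members with counts, CPM had a Spearman's rho of 0.54 with exonic length (across genes, which are not independent replicates) and TPM one of -0.13. Levels of different genes are therefore compared in TPM, and a CPM is given beside it only where the length of a gene model stands out.

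**Figure D1:**
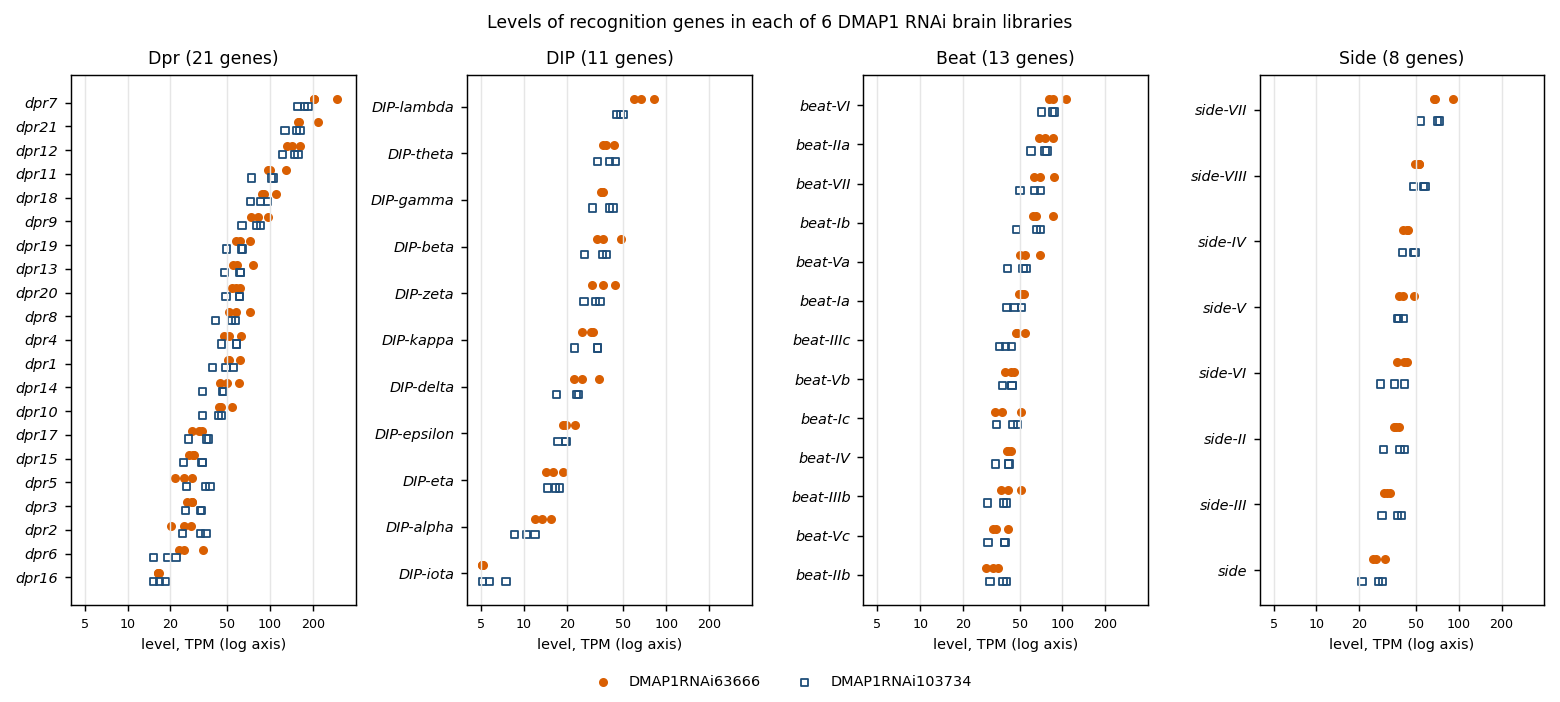
Levels in TPM (log axis) of the 53 members with counts, by family and in order of mean level, with filled circles for the 3 DMAP1RNAi63666 libraries and open squares for the 3 DMAP1RNAi103734 libraries. Dpr genes run from a mean of 16.7 TPM (dpr16) to 203 TPM (dpr7), and the series overlap for all but 6 members.

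The Dpr family had the highest summed level, with 1725, 1397 and 1326 TPM in DMAP1RNAi63666 and 1437, 1116 and 1414 TPM in DMAP1RNAi103734. The series averaged 1483 ± 213 and 1322 ± 179 TPM (SD, n = 3 each), and their ranges overlapped. The family spread over a 12.2-fold range of mean levels, with a median member at 53.9 TPM, and its 3 highest members took 36.4% of the sum.

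The highest of the Dpr genes was dpr7 (FBgn0053481, chromosome 4, 247124 to 253329, minus strand), with 298, 203 and 203 TPM in DMAP1RNAi63666 and 175, 157 and 185 TPM in DMAP1RNAi103734. Its lowest DMAP1RNAi63666 library lay above every DMAP1RNAi103734 library, and library 1 stood far above the rest. The next gene, dpr21, had 218, 158 and 159 TPM in DMAP1RNAi63666 and 154, 128 and 163 TPM in DMAP1RNAi103734, with overlapping ranges. Its gene model of 993 bases is the shortest of the 54 members and enters its level per length. By CPM, which takes no account of length, dpr21 averaged 75.0 in DMAP1RNAi63666 and 63.7 in DMAP1RNAi103734, while dpr12 averaged 291 in DMAP1RNAi63666 and 291 in DMAP1RNAi103734. For dpr12, whose protein binds DIP-delta, the levels were 163, 142 and 132 TPM in DMAP1RNAi63666 and 157, 123 and 149 TPM in DMAP1RNAi103734. At the other end dpr16 stayed between 16.3 and 16.7 TPM in DMAP1RNAi63666 and between 15.3 and 18.5 TPM in DMAP1RNAi103734.

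The other 17 Dpr genes lay between these. Neighbours in the order of mean levels overlapped over the 6 libraries in 20 of 20 cases, and 8 of these pairs kept the same order in all 6 libraries. The members shift together from library to library, so overlapping ranges do not exclude an order that holds within each library: dpr12 was above dpr11, and dpr9 above dpr19, in 6 of 6 libraries.

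The DIP family had lower levels, with a median member at 29.1 TPM. It summed to 379, 308 and 303 TPM in DMAP1RNAi63666 and to 316, 248 and 310 TPM in DMAP1RNAi103734, or 330 ± 42.5 and 292 ± 38.1 TPM (SD, n = 3 each), with overlapping ranges. The 3 highest members took 43.0% of the sum.

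Among them DIP-lambda (FBgn0267428, chromosome 2R, 432219 to 705848, plus strand) was the highest, at 81.8, 59.1 and 66.5 TPM in DMAP1RNAi63666 and 49.9, 45.0 and 47.6 TPM in DMAP1RNAi103734. All of its DMAP1RNAi63666 values lay above all of its DMAP1RNAi103734 values. For DIP-theta the levels were 42.7, 37.8 and 35.8 TPM in DMAP1RNAi63666 and 39.8, 32.8 and 44.2 TPM in DMAP1RNAi103734, and for DIP-gamma, the partner of Dpr11 in the visual system, 35.9, 34.6 and 35.5 TPM in DMAP1RNAi63666 and 42.3, 30.4 and 40.0 TPM in DMAP1RNAi103734. Both overlapped between the series. The lowest DIP gene was DIP-iota, at 5.13, 5.06 and 5.12 TPM in DMAP1RNAi63666 and 5.14, 5.73 and 7.48 TPM in DMAP1RNAi103734. It was the only one of the 53 whose TPM was higher, if narrowly, in every DMAP1RNAi103734 library than in every DMAP1RNAi63666 library. By CPM its ranges overlapped, at 2.82, 2.92 and 2.87 in DMAP1RNAi63666 and 2.87, 3.38 and 4.33 in DMAP1RNAi103734. Its log2 fold change of DMAP1RNAi63666 over DMAP1RNAi103734 was -0.22 (SE 0.22, adjusted p = 0.546, edgeR). Ranges of neighbours in the order overlapped in 8 of 10 cases.

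Beat genes had a narrow range of mean levels, 2.50-fold over the 13 members with counts, against 2.68-fold for Side, 10.4-fold for DIP and 12.2-fold for Dpr. The median Beat member was at 44.9 TPM. The family summed to 810.1, 681 and 635 TPM in DMAP1RNAi63666 and to 710.2, 544 and 677 TPM in DMAP1RNAi103734, or 709 ± 91.0 and 644 ± 87.8 TPM (SD, n = 3 each). The ranges overlapped.

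The highest Beat gene, beat-VI, had 107, 85.5 and 80.3 TPM in DMAP1RNAi63666 and 88.2, 70.8 and 84.9 TPM in DMAP1RNAi103734. Next came beat-IIa with 85.4, 76.0 and 68.1 TPM in DMAP1RNAi63666 and 78.0, 60.1 and 75.5 TPM in DMAP1RNAi103734. The third, beat-VII, had 86.6, 69.2 and 63.4 TPM in DMAP1RNAi63666 and 70.5, 50.4 and 63.2 TPM in DMAP1RNAi103734. In all of these library 1 of DMAP1RNAi63666 was the highest and library 2 of DMAP1RNAi103734 the lowest, and the other 4 libraries overlapped. The lowest Beat gene with counts was beat-IIb, at 35.2, 32.5 and 28.8 TPM in DMAP1RNAi63666 and 38.3, 31.0 and 40.4 TPM in DMAP1RNAi103734. Neighbouring ranges overlapped in 12 of 12 cases.

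Side genes summed to 365, 340.2 and 336 TPM in DMAP1RNAi63666 and to 370.1, 291 and 352 TPM in DMAP1RNAi103734, or 347 ± 15.5 and 338 ± 41.6 TPM (SD, n = 3 each), with overlapping ranges. The median member was at 39.1 TPM, and the 3 highest took 49.1% of the sum. At the top, side-VII had 90.6, 67.9 and 67.6 TPM in DMAP1RNAi63666 and 73.7, 53.9 and 71.3 TPM in DMAP1RNAi103734. It was followed by side-VIII with 49.1, 52.7 and 52.9 TPM in DMAP1RNAi63666 and 57.9, 48.1 and 56.4 TPM in DMAP1RNAi103734. Both overlapped between the series, and side-VIII had the smallest spread within the series of all 53 members, an SD of 0.09 in TMM-scaled log2 CPM. The third, side-IV, had 43.2, 43.9 and 40.6 TPM in DMAP1RNAi63666 and 49.3, 40.4 and 48.3 TPM in DMAP1RNAi103734, which overlapped as well.

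The founding gene side (FBgn0016061, chromosome 3R, 27375088 to 27437482, minus strand), which marks the path that motor axons follow to muscle, was the lowest of its family, at 30.2, 26.1 and 24.9 TPM in DMAP1RNAi63666 and 29.0, 20.9 and 27.5 TPM in DMAP1RNAi103734. Its gene model of 11723 bases is the longest of the members, and by CPM it averaged 134 in DMAP1RNAi63666 and 131 in DMAP1RNAi103734. Neighbouring ranges of the Side genes overlapped in 7 of 7 cases.

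Known binding partners were set side by side as ratios of TPM within a library, for 9 pairs. In the 4 Dpr-DIP pairs the DIP gene was lower than its partner in 6 of 6 libraries. The ratio of DIP-alpha to dpr10, a pair known from motor neurons and their muscles and from the optic lobe, averaged 0.287 ± 0.0205 in DMAP1RNAi63666 and 0.253 ± 0.0114 in DMAP1RNAi103734 (SD, n = 3 each). That of DIP-alpha to dpr6 averaged 0.504 ± 0.0399 in DMAP1RNAi63666 and 0.555 ± 0.0101 in DMAP1RNAi103734. DIP-alpha itself (FBgn0052791, chromosome X, 3507245 to 3571649, minus strand) had 15.6, 11.98 and 13.4 TPM in DMAP1RNAi63666 and 11.97, 8.63 and 10.5 TPM in DMAP1RNAi103734, with the lowest DMAP1RNAi63666 value just above the highest DMAP1RNAi103734 value.

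The ratio of DIP-gamma to dpr11, which match R7 photoreceptors to their targets, averaged 0.330 ± 0.0484 in DMAP1RNAi63666 and 0.400 ± 0.0111 in DMAP1RNAi103734. That of DIP-delta to dpr12, a pair of the mushroom body, averaged 0.186 ± 0.0186 in DMAP1RNAi63666 and 0.15 ± 0.00999 in DMAP1RNAi103734. In these 4 pairs the ranges of the series did not overlap, 2 of them higher and 2 lower in DMAP1RNAi63666. Each had an exact two-sided permutation p of 0.1, the smallest that 3 against 3 libraries allow, and 0.225 after Benjamini-Hochberg adjustment over the 9 pairs. No pair could pass 0.05 with so few libraries, so this test cannot decide whether a ratio differs. How often the ratios of other gene pairs do not overlap was not computed. For single genes the TPM ranges did not overlap in 32.0% of all genes tested. DIP-alpha is in 2 of the 4 pairs, which are therefore not independent.

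In the 5 Beat-Side pairs the gene of higher TPM was not always of the same family. The ratio of beat-Ia to side, the pair that steers motor axons, averaged 1.92 ± 0.133 in DMAP1RNAi63666 and 1.80 ± 0.148 in DMAP1RNAi103734, and beat-Ia had the higher TPM in 6 of 6 libraries. The ratio of beat-IIb to side-IV averaged 0.756 ± 0.0545 in DMAP1RNAi63666 and 0.793 ± 0.0374 in DMAP1RNAi103734. Of the beat-V cluster, whose proteins bind Side-VI, beat-Va stood at 1.44 ± 0.147 times side-VI in DMAP1RNAi63666 and 1.42 ± 0.0852 times in DMAP1RNAi103734. For beat-Vb the ratio was 1.06 ± 0.0160 in DMAP1RNAi63666 and 1.22 ± 0.143 in DMAP1RNAi103734, and for beat-Vc 0.892 ± 0.0653 in DMAP1RNAi63666 and 1.04 ± 0.0888 in DMAP1RNAi103734. All 5 pairs overlapped between the series, with exact permutation p from 0.2 to 0.9. By mean CPM over all libraries, which takes no account of length, the Side gene was the higher in each pair. These means were 60.1 for beat-Ia and 133 for side, and 36.2 for beat-IIb and 97.3 for side-IV. They were 73.7 for beat-Va, 34.4 for beat-Vb and 34.5 for beat-Vc, beside 118 for side-VI. The order within a pair thus depends on the scaling by gene length.

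**Figure D2:**
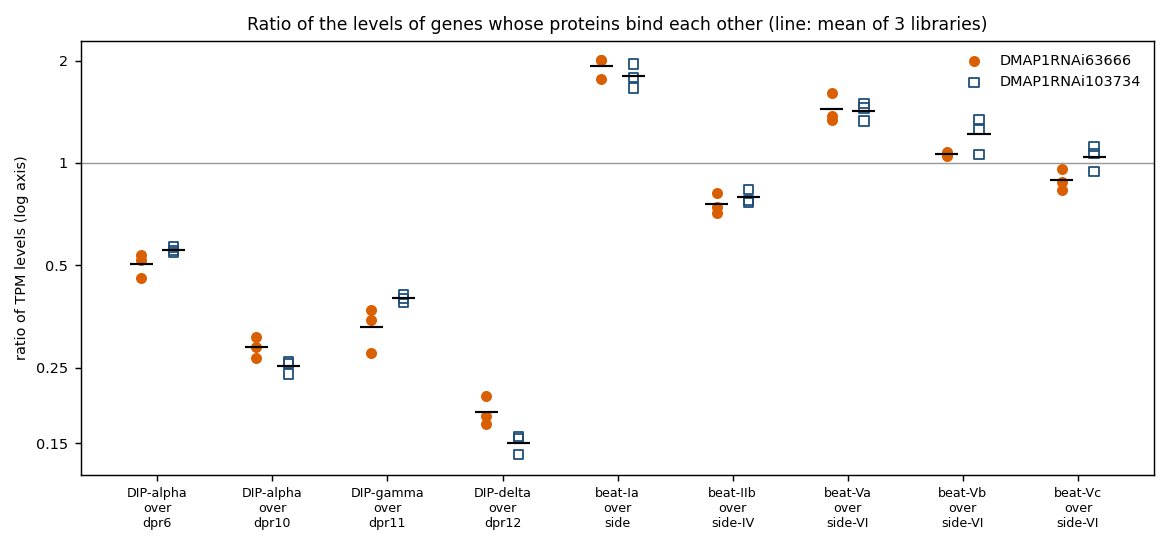
Ratio of TPM levels (log axis) within each library for 9 pairs of genes whose proteins bind each other, with filled circles for DMAP1RNAi63666, open squares for DMAP1RNAi103734 and a line at the mean of 3 libraries. The 4 Dpr-DIP ratios lie between 0.139 and 0.566, and the 5 Beat-Side ratios between 0.710 and 2.001.

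Some members lie next to each other in the genome. With at most 100 kb between neighbours, 18 of the 54 members formed 8 clusters. The beat-V genes on chromosome 3R (12746036 to 12934813) averaged 36.2 ± 4.66 TPM for beat-Vc, 53.9 ± 9.26 for beat-Va and 42.5 ± 3.03 for beat-Vb (SD, n = 6). Those of the beat-I cluster on chromosome 2L (15905134 to 16081684) averaged 66.1 ± 12.5 TPM for beat-Ib, 41.6 ± 7.30 for beat-Ic and 48.9 ± 4.82 for beat-Ia. On chromosome 3L dpr6 and dpr10, both partners of DIP-alpha, lie side by side (9974651 to 10186108) at 23.0 ± 6.35 and 44.3 ± 6.57 TPM. In the 7 clusters in which at least 2 members had counts, the highest member exceeded the lowest by 1.09-fold (dpr17 over dpr15) to 2.37-fold (DIP-theta over DIP-eta).

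No member differed between DMAP1RNAi63666 and DMAP1RNAi103734 past the threshold: 0 of 53 had an adjusted p under 0.05 in edgeR's quasi-likelihood test, fitted over 10211 genes, of which 1.55% did. At an unadjusted p under 0.05 there were 6 of 53 members, or 11.3%, against 24.6% of all genes tested. DESeq2 called 2 of 53, or 3.77%, against 9.39% of all genes tested. The TPM ranges of the series did not overlap for 6 of 53 members, or 11.3%, against 32.0% of all genes tested. By none of these counts was the members' share above that of all genes.

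The 6 members at an unadjusted p under 0.05 include one from each end. By edgeR's quasi-likelihood test with Benjamini-Hochberg adjustment, the log2 fold change of DMAP1RNAi63666 over DMAP1RNAi103734 was 0.59 for DIP-lambda (SE 0.14, adjusted p = 0.0865). DESeq2 gave DIP-lambda an adjusted p of 0.00648. For dpr6 it was 0.60 (SE 0.19, adjusted p = 0.131 in edgeR and 0.0338 in DESeq2), with 34.0, 23.1 and 25.1 TPM in DMAP1RNAi63666 and 21.9, 15.3 and 19.0 TPM in DMAP1RNAi103734. Its lowest DMAP1RNAi63666 value was above its highest DMAP1RNAi103734 value.

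For beat-IIIc (FBgn0032629, chromosome 2L, 17187637 to 17260734, minus strand) the levels were 54.4, 48.1 and 47.1 TPM in DMAP1RNAi63666 and 43.9, 36.1 and 39.9 TPM in DMAP1RNAi103734, which did not overlap, and the log2 fold change was 0.36 (SE 0.11, adjusted p = 0.131, edgeR). For DIP-alpha it was 0.45 (SE 0.15, adjusted p = 0.141, edgeR), and for dpr7 it was 0.50 (SE 0.18, adjusted p = 0.154, edgeR). In the other direction dpr5, singled out after its values were seen, had 21.4, 28.3 and 24.8 TPM in DMAP1RNAi63666 and 35.5, 25.9 and 37.9 TPM in DMAP1RNAi103734. These ranges overlapped, and the log2 fold change was -0.37 (SE 0.16, adjusted p = 0.19, edgeR).

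The 5 positive differences were smaller without library 1 of DMAP1RNAi63666, at a log2 fold change of 0.41 for DIP-lambda, 0.26 for beat-IIIc, 0.37 for dpr6, 0.30 for DIP-alpha and 0.24 for dpr7. With the libraries scaled to equal pan-neuronal markers, which moves the median of all genes to -0.29, they were 0.27 for DIP-lambda, 0.06 for beat-IIIc, 0.29 for dpr6, 0.15 for DIP-alpha and 0.17 for dpr7. No adjusted p was under 0.05 in either of these fits.

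**Figure D3:**
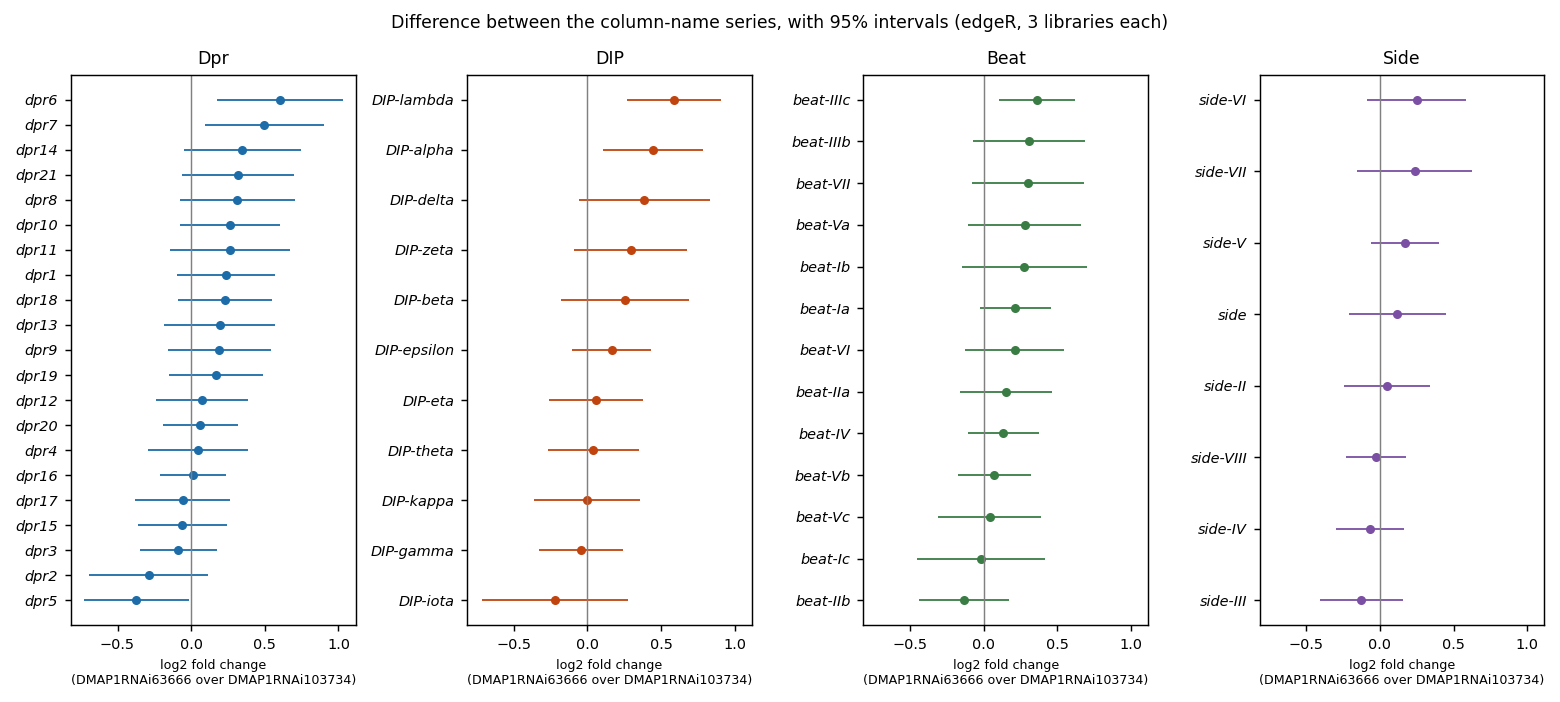
Log2 fold change of DMAP1RNAi63666 over DMAP1RNAi103734 for each of 53 members (point) with its 95% interval (line), by family, from edgeR with 3 libraries a series. No member passed an adjusted p of 0.05, and the intervals run from -0.73 (dpr5) to 1.03 (dpr6).

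Over the families the fold changes leaned to one side without a call. Of the 53 members 40 had a positive and 13 a negative log2 fold change, and the median was 0.17, against 0.00061 over all genes tested, of which 50.1% were positive. Family medians were 0.19 for Dpr (16 of 21 positive), 0.16 for DIP (8 of 11), 0.21 for Beat (11 of 13) and 0.08 for Side (5 of 8). Without library 1 of DMAP1RNAi63666 the median over the members was 0.03, and 31 of 53 were positive, against 5146 of 10436 genes tested. The family medians were then 0.03 for Dpr (12 of 21 positive), 0.03 for DIP (6 of 11), 0.07 for Beat (9 of 13) and 0.0024 for Side (4 of 8). Without library 2 of DMAP1RNAi103734 the members' median was 0.08, and again 31 of 53 were positive, against 5264 of 10382 genes tested. The family medians were then 0.08 for Dpr, 0.11 for DIP, 0.13 for Beat and -0.04 for Side. Scaling the libraries to equal pan-neuronal markers gave a median of -0.13 for the members, 0.16 above the median of all genes of -0.29. Under this scaling 9 of 53 members were positive, against 1652 of 10211 genes tested, a similar share.

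Most members moved together from library to library. By log2 CPM scaled with the TMM factors of edgeR, 45 of 53 members (84.9%) were at their lowest in library 2 of DMAP1RNAi103734, against 21.5% of all genes tested. In library 1 of DMAP1RNAi63666, 37 of 53 (69.8%) were at their highest, against 29.5% of all genes tested. By CPM on library totals alone, without TMM, these counts were 40 of 53 against 15.9% of all genes, and 33 of 53 against 17.1%. On the TMM scale only DIP-iota and side-V were above their own mean in library 2 of DMAP1RNAi103734. The median deviation of the members from their own means was 0.30, 0.02 and -0.12 in DMAP1RNAi63666 libraries 1 to 3, and 0.05, -0.30 and 0.01 in DMAP1RNAi103734 libraries 1 to 3. Side genes did not peak in library 1 of DMAP1RNAi63666: 3 of 8 were highest there and 4 of 8 in library 1 of DMAP1RNAi103734. Their medians were 0.09 and 0.11 in these libraries. In library 1 of DMAP1RNAi63666 the medians were 0.35 for Dpr, 0.31 for DIP and 0.37 for Beat.

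The median of pan-neuronal markers moved with the pattern of the members. Transmitter markers are given in TPM only, not on the TMM scale of that pattern. Summed GABA markers had 662, 593 and 558 TPM in DMAP1RNAi63666 and 685, 546 and 664 TPM in DMAP1RNAi103734. The cholinergic marker ChAT had 51.4, 49.9 and 45.0 TPM in DMAP1RNAi63666 and 52.6, 40.7 and 53.2 TPM in DMAP1RNAi103734. Summed motor and glutamatergic markers had 573, 502 and 494 TPM in DMAP1RNAi63666 and 509, 420 and 513 TPM in DMAP1RNAi103734. Only the last were highest in library 1 of DMAP1RNAi63666. The median deviation of 10 pan-neuronal markers was 0.40, 0.03 and -0.01 in DMAP1RNAi63666 and 0.01, -0.32 and -0.12 in DMAP1RNAi103734. That of 9 glial markers was 0.28, -0.05 and 0.10 in DMAP1RNAi63666 and -0.07, -0.23 and -0.07 in DMAP1RNAi103734. The glial genes were not uniform. Of the 9, 7 had a positive log2 fold change of DMAP1RNAi63666 over DMAP1RNAi103734, and loco (-0.31, SE 0.12) and repo (-0.16, SE 0.14) a negative one. The summed level of the pan-neuronal markers ranged from 2282 to 3055 TPM in DMAP1RNAi63666 and from 1776 to 2364 TPM in DMAP1RNAi103734. Glial markers summed to 5438 to 6579 TPM in DMAP1RNAi63666 and 4752 to 5300.3 TPM in DMAP1RNAi103734, and 8 neuroblast and progenitor markers to 479.5 to 510.5 TPM in DMAP1RNAi63666 and 488 to 519.9 TPM in DMAP1RNAi103734.

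Of tissues outside the brain, 6 of 6 fat body markers had counts and summed to 29.5 to 139 TPM in DMAP1RNAi63666 and 38.9 to 497 TPM in DMAP1RNAi103734. The 7 muscle markers that were matched summed to 145 to 448 TPM in DMAP1RNAi63666 and 223 to 371 TPM in DMAP1RNAi103734. For 5 of 5 hemocyte markers the sums were 148 to 189.9 TPM in DMAP1RNAi63666 and 209 to 241 TPM in DMAP1RNAi103734. For 5 of 5 photoreceptor and eye disc markers they were 47.4 to 63.8 TPM in DMAP1RNAi63666 and 68.0 to 74.2 TPM in DMAP1RNAi103734. Of the markers matched to a gene row, only the salivary gland marker Sgs5 was at 0 in all 6 libraries. The part of these cell types in the members' differences was not tested, and in these bulk samples fewer cells of a type and less RNA per cell cannot be told apart.

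**Figure D4:**
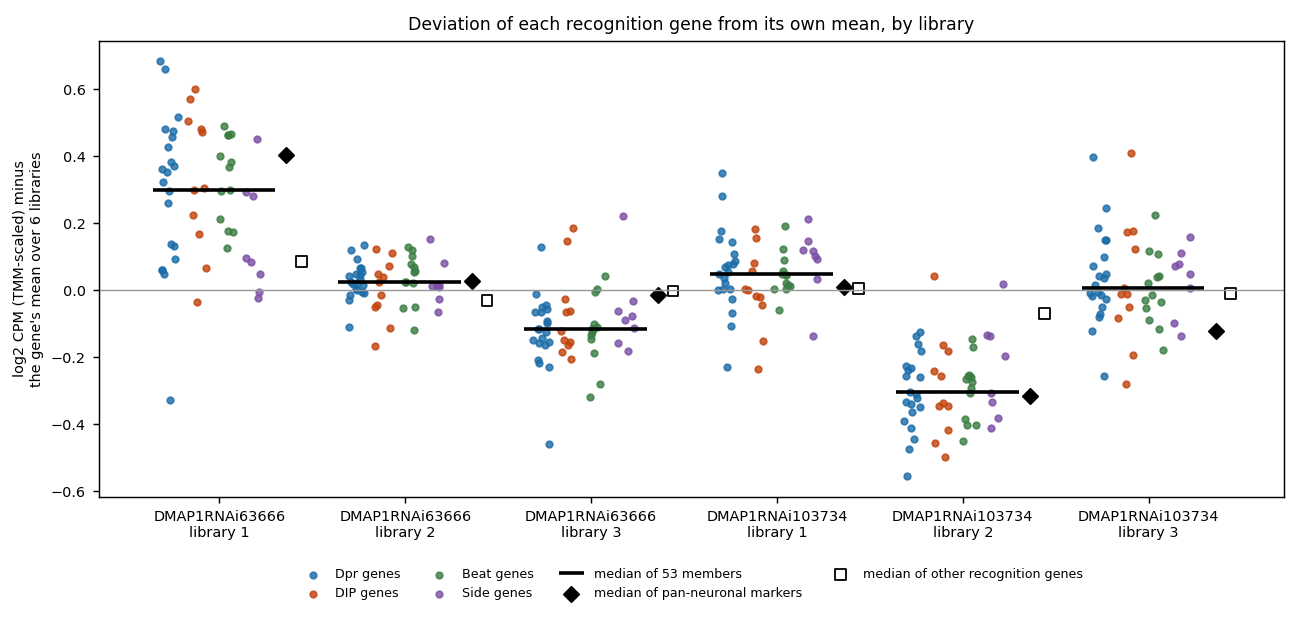
Deviation of each of 53 members from its own mean log2 CPM, scaled with TMM factors, in each library, with the DMAP1RNAi63666 libraries on the left, coloured by family, with the median of the members (bar), of 10 pan-neuronal markers (diamond) and of 33 other recognition genes (open square). Members are high in library 1 of DMAP1RNAi63666 (median 0.30) and low in library 2 of DMAP1RNAi103734 (median -0.30), where the other recognition genes have medians of 0.09 and -0.07.

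Other surface recognition genes were described in the same way. Of a list of 36 such genes, among them Dscam1, CadN, Fas2 and the teneurins, 33 were tested. Their median deviations spanned 0.156 over the 6 libraries, against 0.602 for the members, 0.665 for Dpr, 0.641 for DIP, 0.643 for Beat and 0.362 for Side. These differences were not tested. None of the 33 was called by edgeR, against 1.55% of all genes tested. By edgeR, 5 of 33 had an unadjusted p under 0.05, against 24.6% of all genes tested. DESeq2 called 3 of 33, against 9.39% of all genes tested. The median log2 fold change of the 33 was 0.04. The lowest adjusted p in edgeR was that of Dscam2, a homophilic receptor that controls tiling of axons and dendrites, at -0.35 (SE 0.09, adjusted p = 0.103).

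A few members went against the common pattern. Across the libraries, side-V had 40.7, 38.0 and 48.2 TPM in DMAP1RNAi63666 and 37.7, 41.0 and 37.2 TPM in DMAP1RNAi103734, and its highest level was in a library in which 47 of 53 members were below their own mean. In library 1 of DMAP1RNAi63666 dpr5 was at its lowest, 0.33 below its mean in TMM-scaled log2 CPM. On that scale it was the only member with its lowest value there, and by CPM without TMM DIP-iota and side-VIII were also at their lowest in that library. For dpr2 the levels were 28.1, 24.8 and 20.2 TPM in DMAP1RNAi63666 and 35.5, 24.3 and 32.5 TPM in DMAP1RNAi103734, with the lowest value in library 3 of DMAP1RNAi63666. These genes were chosen after their values were seen.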

How the data were processed

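RNA was extracted with a Qiagen RNeasy kit for Illumina TruSeq sequencing, per the labels' protocols. What the authors deposited are raw counts of read pairs per gene, made by featureCounts 1.6.5 per the file headers, with strand option 2, a minimum overlap of 10 bases and an annotation of BDGP6 release 84, on alignments in a folder named for HISAT2. DESeq2 is named with no role in the submitters' processing notes. The gene length in bases in the table is the authors' deposited annotation, of no sample.

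The table has 6 columns named for DMAP1 RNAi, which give a series and a number but not which labelled sample they are. A further 3 columns of per-sample values match no labelled sample and were not used here. Since nothing in the labels ties the samples to separate animals, the p-values speak of the spread among these libraries alone, and that spread may be technical. Between libraries chi-square per degree of freedom was at least 22.9, so none was counted as a repeat of another. Gene names come from the Ensembl release 115 annotation for 17216 of 17490 identifiers, including all 54 members.

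CPM and TPM were computed from counts and gene lengths. The series were compared with edgeR 4.0.16 (quasi-likelihood, TMM factors, R 4.3.3) over 10211 genes with a minimum count of 10 in 3 libraries, and adjusted p-values are over all of these. Alternatives used DESeq2 1.42.0, limma 3.58.1, other filters and scalings, a replicate block, and each library left out. The procedure was tested on simulated data in which genes varied independently. The changes put in were larger than those of the members, so changes of the members' size were not covered. Partner ratios were tested by exact permutation (scipy 1.17.1).

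Named genes are, per family, the 3 of highest and the 1 of lowest mean TPM, the 5 of smallest p between the series, the members of the known partnerships, genomic clusters, and DMAP1. Other genes named with values were chosen after their values were seen. The members, lists and tests were chosen with earlier results of these data known.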

Additional observations from a re-analysis of the deposited data

Results flagged for a closer look

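Over the 6 libraries, 4 of 57 levels (53 members and 4 family sums) had 1 library far from the other 5 by Dixon's criterion, where chance gives about 1 in 20, or 2.85. In library 1 of DMAP1RNAi63666 dpr7 reached 298 TPM, against 157 to 203 TPM in the other 5 libraries. In library 3 of the same series side-V reached 48.2 TPM, against 37.2 to 41.0 TPM. In library 3 of DMAP1RNAi103734 DIP-iota reached 7.48 TPM, against 5.06 to 5.73 TPM. In library 2 of that series beat-IV was at 34.0 TPM, against 40.7 to 43.2 TPM in the other 5.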

How the results depend on the processing

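The count of members called was 0 with RLE size factors, either other filter, limma-voom and the pan-neuronal scaling, 2 with DESeq2 (DIP-lambda and dpr6), and 0 to 1 with each library left out (DIP-lambda without library 2 of DMAP1RNAi63666). The count over all genes, 158, was 959 with DESeq2, 90 with the minimum count asked for in all 6 libraries, 91 with the pan-neuronal scaling and 69 to 457 with each library left out. The median log2 fold change of the members was -0.13 with the pan-neuronal scaling and 0.03 to 0.26 with each library left out. Relative to all genes it stayed between 0.04 and 0.26 over 13 alternatives. The cause of these changes was not tested. Counts of members by their lowest or highest library on CPM without TMM were added after seeing the data. With the genes of the mitochondrial genome left out of TPM, mean family sums were 1676 TPM for Dpr, 371 for DIP, 808 for Beat and 408 for Side. The number of members detected was 53 by each of the 3 other rules at 1 CPM or by edgeR's filter. The 5 named members with positive differences stayed positive in all 13 alternatives, but were smallest under the pan-neuronal scaling, at 0.06 (beat-IIIc) to 0.29 (dpr6), where all genes had a median of -0.29.

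The numbers in the column names did not pair the libraries: deviations of same-numbered libraries correlated at 0.22, -0.20 and -0.24. With the number as a replicate block 1 member (dpr6) and 278 genes were called. Libraries held at least 31518485 counts, and the common biological coefficient of variation between them was 15.2%; counting error was not set against it.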

Other observations

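The order of the members by level was much the same in all libraries. Across the 53 members with counts, Spearman's rho of TPM between libraries was 0.928 to 0.991 over 15 pairs of libraries. These are correlations across genes, which are not independent replicates. The spread within the series was a little above that of other genes, with a median SD of TMM-scaled log2 CPM of 0.220 over the members, against 0.174 over all genes tested. It ran from 0.0925 for side-VIII to 0.314 for DIP-delta, and its family medians were 0.225 for Dpr, 0.206 for DIP, 0.220 for Beat and 0.180 for Side. No difference between these spreads was tested.

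The members span from 3.74 kb (dpr19) to 274 kb (DIP-lambda) of the genome. Across the 53 members the span had a Spearman's rho of 0.02 with mean TPM and of 0.21 with the log2 fold change between the series, both weak and given as a description.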
